A study of Mus musculus with 10 samples.

Results

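Vsig4, Laptm5, Dnase1l3 and Mmrn2 are transcripts of liver cells other than hepatocytes. All probe sets annotated to these genes on the Affymetrix U74Cv2 array were taken, which gave 5 probe sets for 4 genes among 11868 probe sets and 5928 genes tested. The genes were chosen by the kind of cell they mark, with their log2 levels and differences on these arrays known, so their own differences between groups are given as a description, with standard errors and without p-values.

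Liver RNA of male mice was measured in 5 groups, where each group is a single pool made from the RNA of 5 animals and measured on 2 arrays. Scap-/- mice (Scap-/-;MX1-Cre) have livers without SCAP, the escort protein of the sterol regulatory element-binding proteins (SREBPs), and their control is called Scap WT here. Both were 10 to 12 weeks old, ate Teklad chow and received 4 intraperitoneal injections of poly(I:C) to switch on Cre, the last of them 14 days before the livers were taken. The Mx1 promoter responds to interferon, which poly(I:C) elicits, and its activity is not limited to hepatocytes. TgSREBP-1a and TgSREBP-2 mice carry the active nuclear form of human SREBP-1a or SREBP-2, and their littermates are called SREBP WT. These 3 groups were 12 to 16 weeks old and were kept for 2 weeks on food high in protein and low in carbohydrate so that the transgenes were strongly expressed. The promoter of the transgenes is not given in the sources used here.

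Kupffer cells are the resident macrophages of the liver sinusoids, where they clear bacteria and cell debris from portal blood. The sinusoids are lined by a fenestrated endothelium that also scavenges, taking up waste macromolecules from the blood. In RNA of whole liver, a smaller number of cells of a kind and less RNA in each of them cannot be told apart.

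The levels below are log2 values of the authors' RMA summary, comparable between arrays for 1 probe set but not between probe sets. The medians of the 10 arrays lay between 4.69 and 4.77, and duplicate arrays correlated at 0.992 to 0.995 across probe sets. Hybridisation 1 was the higher of the duplicates in all 5 groups for Vsig4, and in 4 of 5 for Laptm5 and Dnase1l3. That was so in all 5 groups for 6.15% of probe sets and in 4 for 17.4%. Duplicates are hybridisations of 1 pool, so every error and p-value here measures the spread between hybridisations and holds no variation between mice.

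Vsig4 encodes a complement receptor of the immunoglobulin superfamily that binds fragments of C3 and marks Kupffer cells. Laptm5 encodes a membrane protein of lysosomes in cells of the blood lineages, macrophages and lymphocytes included, where it helps to send receptors for degradation. Promoter sequences (GRCm38.p6, RefSeq) from 250 bases before to 50 after the start of the gene were found for 2 of the 4 genes, Vsig4 and Laptm5. They are shown, 5′ to 3′ on the strand of the gene, because no others of the 4 were found. Whether they bear on the levels was not tested. Capitals mark GAGGAA on either strand, the purine-rich box bound by PU.1, a transcription factor of myeloid cells.
Vsig4, chrX:96293389-96293688, minus strand: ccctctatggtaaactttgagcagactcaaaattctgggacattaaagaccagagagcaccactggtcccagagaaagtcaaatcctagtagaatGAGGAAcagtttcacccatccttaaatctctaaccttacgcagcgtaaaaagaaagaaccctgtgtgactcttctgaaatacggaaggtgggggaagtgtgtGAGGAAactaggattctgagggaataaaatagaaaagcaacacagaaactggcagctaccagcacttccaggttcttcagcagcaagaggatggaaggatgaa
Laptm5, chr4:130913066-130913365, plus strand: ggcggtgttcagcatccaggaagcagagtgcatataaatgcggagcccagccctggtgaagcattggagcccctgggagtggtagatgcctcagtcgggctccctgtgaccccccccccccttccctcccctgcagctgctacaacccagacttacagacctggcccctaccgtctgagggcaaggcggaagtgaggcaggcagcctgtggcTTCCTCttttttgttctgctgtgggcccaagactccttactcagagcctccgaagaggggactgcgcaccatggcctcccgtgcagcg

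GAGGAA begins at bases 96 and 198 of the Vsig4 promoter, and its reverse complement at base 213 of the Laptm5 promoter. On either strand it is held by 28.3% of the 32851 promoters of the same length. TCACNCCAC, a form of the element to which SREBPs bind, was searched on both strands and its letters are in neither promoter; 1.24% of all promoters hold it. CACGTG, a form of the E-box and the only form searched, is in neither and in 7.15% of all promoters. CCAAT, the box bound by NF-Y, is on the reverse strand of the Laptm5 promoter at base 63, is not in that of Vsig4, and is in 37.4% of all promoters. None of the matches overlaps another. A match is a run of letters in this window, given as a description.

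Vsig4 was higher in both transgenic pools than in SREBP WT and about level between the Scap pools. On probe set 132172_at its level was 8.48 and 8.44 in TgSREBP-1a and 8.28 and 7.84 in TgSREBP-2, against 7.59 and 7.04 in SREBP WT. In the Scap study it was 7.87 and 7.43 in Scap-/- and 7.78 and 7.59 in Scap WT. The arrays of each transgenic group lay above both SREBP WT arrays, while the Scap groups overlapped. The TgSREBP-1a duplicates were the closest of the 5 groups for Vsig4, 0.04 apart, and those of SREBP WT the farthest, at 0.55.

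For Vsig4 the difference of TgSREBP-1a from SREBP WT was 1.14 (SE 0.20, 2.2-fold), and that of TgSREBP-2 was 0.74 (SE 0.20, 1.67-fold). Between the transgenics it was 0.40 (SE 0.20), at the edge of 2 standard errors, with a gap of 0.16 between the nearest arrays. That difference was 0.18 without TgSREBP-2 replicate 2 and 0.62 without TgSREBP-2 replicate 1. Scap-/- differed from Scap WT by -0.04 (SE 0.20). In the order of group means, TgSREBP-1a came first, then TgSREBP-2, Scap WT, Scap-/- and SREBP WT. From TgSREBP-2 downwards no neighbours in that order differed by more than 2 standard errors. Both comparisons of a transgenic with SREBP WT share the same 2 control arrays. Without SREBP WT replicate 2, the lowest of the 10 arrays, the TgSREBP-1a difference was 0.86 and the TgSREBP-2 difference 0.46.

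Laptm5 followed the same order at its ends. On probe set 167764_f_at its level was 9.68 and 9.57 in TgSREBP-1a and 9.11 and 9.13 in TgSREBP-2, against 8.75 and 8.41 in SREBP WT. It was 9.33 and 8.92 in Scap-/- and 9.15 and 8.98 in Scap WT. The TgSREBP-1a arrays lay above the other 8 and the SREBP WT arrays below them, while TgSREBP-2, Scap-/- and Scap WT overlapped. The suffix _f_at marks a probe set whose probes may match further transcripts, and this is the only Laptm5 probe set on the array. Among genes named below, the probe sets standing for Fcgr1, Lyz1, Pld4, Adgrl4, Anxa4, Hpx, Cuzd1, Emilin3, Fth1, Micu2 and Bod1 carry the same suffix.

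The Laptm5 difference was 1.05 (SE 0.15, 2.06-fold) between TgSREBP-1a and SREBP WT and 0.54 (SE 0.15, 1.45-fold) between TgSREBP-2 and SREBP WT, the second being 0.36 without SREBP WT replicate 2. TgSREBP-1a was above TgSREBP-2 by 0.51 (SE 0.15, 1.42-fold), with arrays 0.44 apart. Scap-/- differed from Scap WT by 0.05 (SE 0.15). Across the 10 arrays, Vsig4 and Laptm5 had a Pearson correlation of 0.91, a description over 5 pools on 2 arrays each, in which the arrays share their normalisation.

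**Figure D1:**
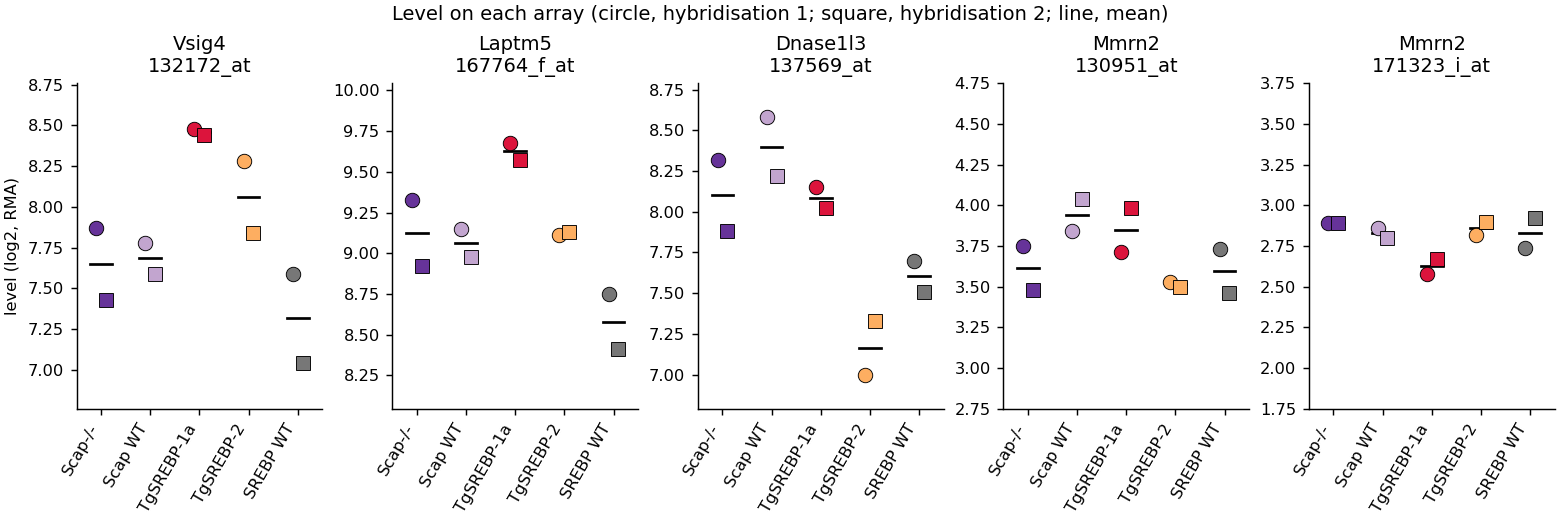
Level of each of the 5 probe sets on the 10 arrays (log2, RMA); points are arrays, coloured by group, and lines are group means of 2 hybridisations. Each panel spans the same 2 log2 units. Vsig4 and Laptm5 were highest in TgSREBP-1a (8.44 to 8.48 and 9.57 to 9.68), and Dnase1l3 was lowest in TgSREBP-2 (7.00 and 7.33).

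Dnase1l3 encodes a secreted nuclease that digests DNA in chromatin and in particles shed by dying cells, and in liver it is made by cells of the sinusoids. It differed between the transgenic pools, and its order was not that of Vsig4 and Laptm5. On probe set 137569_at its level was 8.15 and 8.02 in TgSREBP-1a and 7.00 and 7.33 in TgSREBP-2, against 7.70 and 7.51 in SREBP WT. The 3 groups did not overlap, and SREBP WT lay between the transgenics. In the Scap study it was 8.32 and 7.88 in Scap-/- and 8.58 and 8.22 in Scap WT, which overlapped.

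The Dnase1l3 difference of TgSREBP-1a from TgSREBP-2 was 0.92 (SE 0.17, 1.89-fold), with a gap of 0.69 between the nearest arrays. Against SREBP WT, TgSREBP-1a differed by 0.48 (SE 0.17, 1.39-fold) and TgSREBP-2 by -0.44 (SE 0.17, 1.36-fold). The second was -0.28 without TgSREBP-2 replicate 1 and ran from -0.61 to -0.28 on leaving out each array. Scap-/- differed from Scap WT by -0.30 (SE 0.17), a value that ran from -0.52 to -0.09 on leaving out each array. Scap WT averaged 8.40 ± 0.26 and SREBP WT 7.61 ± 0.14 (SD, n = 2 hybridisations), 0.80 apart, which was the widest gap between the wild types among the 5 probe sets. Scap WT was also above SREBP WT by 0.37 for Vsig4 and by 0.49 for Laptm5. Diet, age, injections and study differ together between the wild types and cannot be told apart. The correlation of Dnase1l3 over the 10 arrays was 0.05 with Vsig4, 0.38 with Laptm5 and 0.68 with Mmrn2.

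Mmrn2 encodes multimerin 2, a glycoprotein of the EMILIN and multimerin family in the matrix around endothelium, where it binds the lectin-like receptors CLEC14A and CD93. Its signal was low on both probe sets, with a mean over the 10 arrays of 3.70 at 130951_at and 2.80 at 171323_i_at, below the median of 4.74 over all probe sets. No detection calls came with the values, so it is not known whether Mmrn2 lay above background, and its differences are given without folds.

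At 130951_at, Mmrn2 had 3.71 and 3.98 in TgSREBP-1a and 3.53 and 3.50 in TgSREBP-2, against 3.73 and 3.46 in SREBP WT. It had 3.75 and 3.48 in Scap-/- and 3.84 and 4.04 in Scap WT. The Scap-/- arrays lay below the Scap WT arrays by a gap of 0.08, and the difference was -0.32 (SE 0.14). TgSREBP-1a and TgSREBP-2 differed by 0.33 (SE 0.14). No neighbours in the order of group means differed by more than 2 standard errors.

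At 171323_i_at the values of all 10 arrays lay between 2.58 and 2.92. The difference of TgSREBP-1a from SREBP WT was -0.21 (SE 0.10) there, against 0.25 (SE 0.14) at 130951_at. That of Scap-/- from Scap WT was 0.07 (SE 0.10), and that of TgSREBP-1a from TgSREBP-2 was -0.24 (SE 0.10). On leaving out each array, the TgSREBP-1a difference from SREBP WT ran from -0.30 to -0.11 at 171323_i_at and from 0.12 to 0.39 at 130951_at, with the values nearest 0 (-0.11 and 0.12) without SREBP WT replicate 2, and also 0.12 without TgSREBP-1a replicate 2. The probe sets of Mmrn2 had opposite signs in all 4 comparisons, and its direction is not settled by these arrays.

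**Figure D2:**
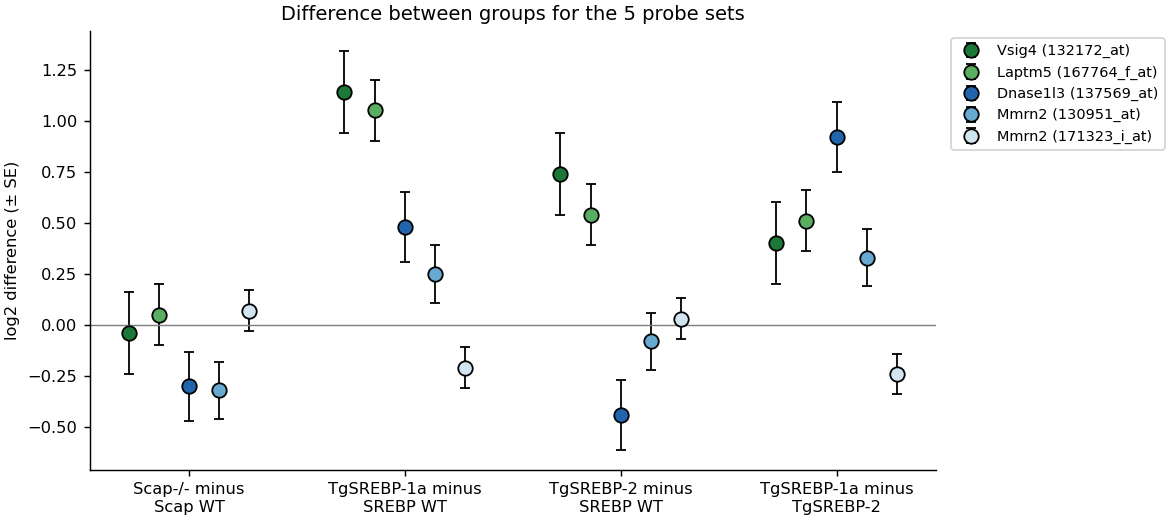
Log2 difference between groups for the 5 probe sets in 4 comparisons; points are differences of group means and bars are ± 1 standard error from limma. Vsig4 (1.14) and Laptm5 (1.05) were highest in TgSREBP-1a against SREBP WT, and Dnase1l3 (0.92) in TgSREBP-1a against TgSREBP-2.

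A probe set was called where limma, fitted over all of them, gave a Benjamini-Hochberg adjusted p under 0.05 and a fold of 1.5 or more. Of the 5 probe sets, 2 were called higher in TgSREBP-1a than in SREBP WT, those of Vsig4 and Laptm5, against 0.683% of all probe sets. Between TgSREBP-1a and TgSREBP-2, 1 of 5 was called higher, that of Dnase1l3, against 0.27% of all. None of the 5 was called in TgSREBP-2 against SREBP WT, where 0.118% of all were, or in Scap-/- against Scap WT, where 0.0843% were. Groups without overlap were more common. In TgSREBP-1a against SREBP WT, 3 of the 5 probe sets were higher without overlap, against 15.2% of all, and 1 was lower, against 24.2%. In TgSREBP-2 against SREBP WT, 2 were higher, against 16.6% of all, and 1 lower, against 18.5%. Between TgSREBP-1a and TgSREBP-2, 4 were higher, against 15.5%, and 1 lower, against 21.5%. In Scap-/- against Scap WT, 1 was higher, against 14.8%, and 1 lower, against 14.9%. Because the genes were chosen with such results known, nothing is read from these shares. Vsig4 lost its call without TgSREBP-1a replicate 1 (1.12), TgSREBP-1a replicate 2 (1.16) or SREBP WT replicate 2 (0.86). Laptm5 lost its call without TgSREBP-1a replicate 1 (0.99) or SREBP WT replicate 2 (0.87). Dnase1l3 lost its call without any 1 of the 6 arrays of the SREBP study, with differences of 0.75 to 1.09.

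Other measured markers of macrophages are described beside Vsig4 and Laptm5. Both genes were chosen with their values known, so no contrast is read from their calls. Of 54 further genes listed as markers of Kupffer cells, other macrophages and monocytes, 9 had a tested probe set. Adgre1, Clec4f, Cd5l, Marco and Timd4 were among the listed genes without one, so the values below do not cover them. None of the 9 was called in TgSREBP-1a against SREBP WT by limma, where 1.04% of all probe sets were called in either direction, and none had an unadjusted p under 0.05, as 9.4% of all probe sets did. Their differences ran from -0.06 to 0.17 with a median of 0.06, against -0.03 over all probe sets. The arrays of the groups did not overlap for 4 of the 9, all higher in TgSREBP-1a, which was so for 15.2% of all probe sets.

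The brightest of the macrophage markers was Ms4a7, a membrane protein of the MS4A family found on macrophages, with 8.05 and 8.05 in TgSREBP-1a and 7.96 and 8.03 in SREBP WT (difference 0.05, SE 0.09, limma adjusted p = 0.929). Fcgr1, the high-affinity receptor for immunoglobulin G, had 6.68 and 6.64 in TgSREBP-1a and 6.64 and 6.78 in SREBP WT (difference -0.05). Both differences lay under 1 standard error, in the pool where Vsig4 was 1.14 higher.

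C1qc, a chain of complement C1q that macrophages secrete, had the largest difference of the 9, with 6.45 and 6.48 in TgSREBP-1a and 6.36 and 6.23 in SREBP WT (0.17, SE 0.09, adjusted p = 0.648). Lgals3, the lectin galectin-3, differed by -0.01, the chemokine receptor gene Cx3cr1 by 0.07 and the lysozyme gene Lyz1 by 0.15 (-0.02 at the other Lyz1 probe set). The remaining markers were Pld4, Coro1a and Siglec1, with differences of 0.06, 0.08 and -0.06, and the signals of Coro1a and Siglec1 were low (means of 3.64 and 3.94). The summed linear signal of the 9 markers, dominated by the brightest probe sets, was 749 to 756 on the TgSREBP-1a arrays and 719 to 733 on the SREBP WT arrays. It was 736 to 761 in TgSREBP-2, 792 to 811 in Scap-/- and 732 to 743 in Scap WT.

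In TgSREBP-2 against SREBP WT, none of the 9 macrophage markers was called, where 0.118% of all probe sets were. At an unadjusted p under 0.05 there was 1, C1qc (difference 0.22, limma adjusted p = 0.783), as for 6.34% of all. The median of the 9 was 0.04, against -0.01 over all probe sets, and their range -0.13 to 0.22. Between TgSREBP-1a and TgSREBP-2 none was called, where 0.514% of all were, and none had an unadjusted p under 0.05, against 7.74% of all (median -0.01, range -0.05 to 0.11).

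In Scap-/- against Scap WT none of the 9 was called, where 0.0843% of all probe sets were. Ms4a7 alone had an unadjusted p under 0.05, against 3.8% of all probe sets. Ms4a7 had 8.26 and 8.24 in Scap-/- and 7.96 and 7.95 in Scap WT (difference 0.29, SE 0.09, adjusted p = 0.999). The median of the 9 was 0.07, against 0.00 over all probe sets. Vsig4 and Laptm5 (-0.04 and 0.05) lay inside the range of these markers in that comparison, -0.12 to 0.29.

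Other measured endothelial markers are described beside Dnase1l3. That gene was chosen with its values known, so no contrast is read from its call. Of 58 further genes listed as markers of sinusoidal and other endothelial cells, 12 had a tested probe set. None of the 12 was called by limma in any of the 4 comparisons. Over all probe sets, 1.04% were called in TgSREBP-1a and 0.118% in TgSREBP-2 against SREBP WT. The share was 0.514% between the transgenics and 0.0843% in Scap-/- against Scap WT. At an unadjusted p under 0.05 there was 1 gene in TgSREBP-1a against SREBP WT and against TgSREBP-2, the transcription factor gene Sox18, 1 in TgSREBP-2 against SREBP WT, Adgrl4, and none in Scap-/- against Scap WT. The shares of all probe sets with an unadjusted p under 0.05 were 9.4%, 7.74%, 6.34% and 3.8% in that order. Sox18 differed by 0.27 and 0.28 in those comparisons (adjusted p = 0.471 and 0.539), at a low mean signal of 2.97.

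Between the transgenics, where the Dnase1l3 difference was 0.92, the 12 endothelial markers had a median of 0.05 and a range of -0.20 to 0.28, against a median of -0.02 over all probe sets. The arrays did not overlap for 5 of the 12 with TgSREBP-1a higher, as for 15.5% of all probe sets, and for 1 with TgSREBP-1a lower, as for 21.5%. Clec4g, a C-type lectin of sinusoidal endothelium and the brightest of the 12, was among the 5, with 8.84 and 8.68 in TgSREBP-1a and 8.62 and 8.34 in TgSREBP-2 (difference 0.28, SE 0.14, adjusted p = 0.716). Gpihbp1, which carries lipoprotein lipase across capillary endothelium, differed by 0.03, and the growth factor genes Wnt2 and Wnt9b by 0.11 and 0.08.

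Among the remaining bright endothelial markers, the nitric oxide synthase adaptor gene Nostrin differed between the transgenics by -0.05 and Egfl7, a secreted angiogenic factor, by -0.18. Against SREBP WT the 12 had a median of 0.01 in TgSREBP-1a (range -0.31 to 0.27) and of -0.05 in TgSREBP-2 (-0.49 to 0.21). The lowest in TgSREBP-2 was Adgrl4, an adhesion receptor of endothelium, with 5.06 and 5.20 in TgSREBP-2 and 5.72 and 5.52 in SREBP WT (difference -0.49, SE 0.17, adjusted p = 0.68). In TgSREBP-1a Adgrl4 differed from SREBP WT by -0.31, against 0.48 for Dnase1l3.

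In Scap-/- against Scap WT the 12 endothelial markers had a median of -0.09, against 0.00 over all probe sets, and a range of -0.27 to 0.19. The arrays did not overlap for 4 of them, all lower in Scap-/-, as for 14.9% of all probe sets. They were Clec4g (-0.12), Egfl7 (-0.27), Wnt2 (-0.21) and Sox18 (-0.10), none with an unadjusted p under 0.05, and the other Egfl7 probe set, at a mean of 3.26, was at 0.15. Dnase1l3 and Mmrn2 at 130951_at were at -0.30 and -0.32 in the same comparison, below the lowest of the 12. The Dnase1l3 arrays overlapped, and Mmrn2 was at 0.07 at its other probe set, with low signal at both.

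**Figure D3:**
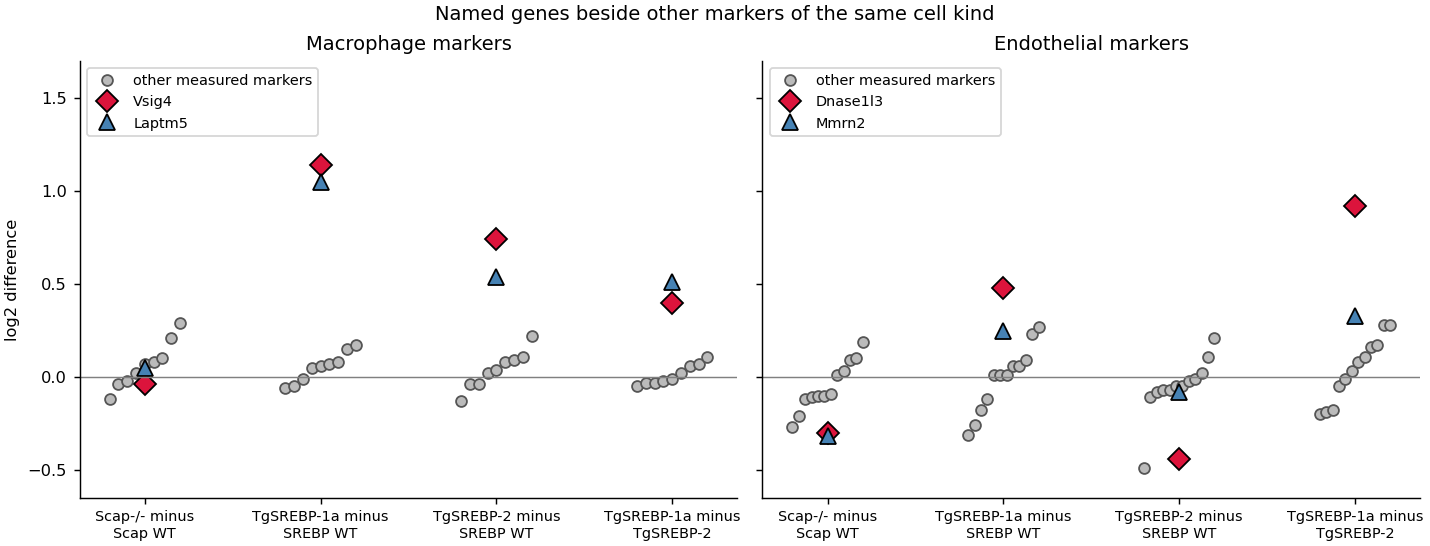
Log2 differences in 4 comparisons of Vsig4 and Laptm5 beside 9 other macrophage markers, and of Dnase1l3 and Mmrn2 (130951_at) beside 12 other endothelial markers; each grey point is 1 gene. In TgSREBP-1a against SREBP WT, Vsig4 (1.14) and Laptm5 (1.05) stood above the other macrophage markers, which ran from -0.06 to 0.17.

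The family members and binding partners of the 4 genes were described as well. Of 27 listed, 9 were measured. The comparisons below are in the order Scap-/-, TgSREBP-1a, TgSREBP-2, and TgSREBP-1a against TgSREBP-2. None of the 9 was called, where 0.0843%, 1.04%, 0.118% and 0.514% of all probe sets were. At an unadjusted p under 0.05 there were 0, 0, 1 and 2 of them, as for 3.8%, 9.4%, 6.34% and 7.74% of all probe sets. Laptm4a, a lysosomal relative of Laptm5, differed by 0.11 between TgSREBP-1a and SREBP WT, and Nedd4, the ubiquitin ligase that LAPTM5 binds, by 0.05. Dnase1l2, a relative of Dnase1l3, differed by -0.05 between TgSREBP-1a and TgSREBP-2. Emilin2, a relative of Mmrn2, had 7.88 and 8.01 in TgSREBP-1a and 8.20 and 8.29 in TgSREBP-2 (difference -0.31, SE 0.10, adjusted p = 0.393), opposite in sign to Dnase1l3 (0.92) and to Mmrn2 at 130951_at (0.33) and of the same sign as Mmrn2 at 171323_i_at (-0.24). Emilin1 differed by -0.24 there, with an unadjusted p under 0.05 like Emilin2, and Emilin3 by -0.21.

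Markers of other cells differed between the same pools. In TgSREBP-1a against SREBP WT, 3 of 6 measured pancreatic acinar markers were called, all lower (Cpa1 by -4.39, Gp2 by -1.48 and Cuzd1 by -0.66), and their summed signal was 145 to 153 in TgSREBP-1a and 885 to 1384 in SREBP WT. In TgSREBP-2 against SREBP WT, Cuzd1 (1.12) and Gp2 (1.08) were called higher, and the sum was 1682 to 2112 in TgSREBP-2. Between the transgenics Cpa1 (-5.18), Gp2 (-2.56) and Cuzd1 (-1.78) were called lower in TgSREBP-1a. In Scap-/- against Scap WT, Cpa1 (-2.86) and Gp2 (-1.32) were called lower and the sum was 140 to 153 in Scap-/- and 467 to 479 in Scap WT. Of all probe sets, 1.04%, 0.118%, 0.514% and 0.0843% were called in either direction in these comparisons, in that order. The part of these transcripts in the values of Vsig4, Laptm5 and Dnase1l3 was not tested.

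Of 4 measured bile duct markers, Anxa4 was called higher (0.84, adjusted p = 0.0201; 0.21 and 0.08 at its other probe sets) and Epcam lower (-0.63, adjusted p = 0.00538; 0.05 and 0.01 at its other probe sets) in TgSREBP-1a against SREBP WT, and none in the other comparisons. None of the 4 lymphocyte, 4 neutrophil and dendritic cell, 4 stellate cell and 6 hepatocyte markers was called in any comparison. Of all probe sets, 1.04% were called in TgSREBP-1a against SREBP WT and 0.0843% to 0.514% in the other comparisons. Nothing is therefore read from a lack of calls in lists this short. Medians in TgSREBP-1a against SREBP WT were -0.10, -0.19, 0.13 and -0.06 for the latter 4 lists, against -0.03 over all probe sets. The hepatocyte marker Fga, a chain of fibrinogen, had 8.42 and 8.34 in TgSREBP-1a and 9.85 and 8.98 in SREBP WT, without overlap (difference -1.04, SE 0.23, limma adjusted p = 0.0665), about as large as the Vsig4 and Laptm5 differences between the same pools. Of the hepatocyte markers, which check the tissue, Hpx and Fga had means of 10.59 and 8.88 over the arrays. Serpina1a and Ahsg were low (3.43 and 2.86), so a probe set can read low in liver for a listed hepatocyte marker. Low macrophage and endothelial markers, such as Coro1a, Siglec1 and Sox18, share that limit, and their lack of a call does not show an unchanged transcript.

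The genes whose level ran closest to each of the 4 were found by Pearson correlation over the 10 arrays among 5205 other genes. The 10 values are 5 pools in duplicate, so these are descriptions. For Vsig4 they were Harbi1 (0.97), Mb21d2 (0.96) and Fth1 (0.96), the last being the heavy chain of the iron store ferritin, with differences from SREBP WT of 0.61 in TgSREBP-1a and 0.49 in TgSREBP-2. For Laptm5 they were Micu2 (0.97), a regulator of mitochondrial calcium uptake, Nt5dc1 (0.96) and Bod1 (0.95). Micu2 differed from SREBP WT by 0.96 in TgSREBP-1a and 0.44 in TgSREBP-2, close to the Laptm5 values of 1.05 and 0.54. Nt5dc1 differed by 0.84 and 0.38, and Bod1 by 0.59 and 0.37, so a high correlation can go with a smaller difference.

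For Dnase1l3 the closest were Etf1 (0.93), the translation release factor, Sowahb (0.90) and Fzd6 (0.90), a frizzled receptor. Sowahb differed by 0.70 between TgSREBP-1a and TgSREBP-2 and by -0.54 between Scap-/- and Scap WT, against 0.92 and -0.30 for Dnase1l3. Etf1, the closest, differed by 0.20 and -0.10 at a mean signal of 3.99, and Fzd6 by 0.11 and -0.05 at a low mean signal of 2.36. For Mmrn2 at 130951_at they were Hdgfl3 (0.87), Neto1 (0.85) and Esrrg (0.84), with mean signals of 2.73, 3.67 and 2.76. None of the 12 genes is on the lists of macrophage or endothelial markers.

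**Figure D4:**
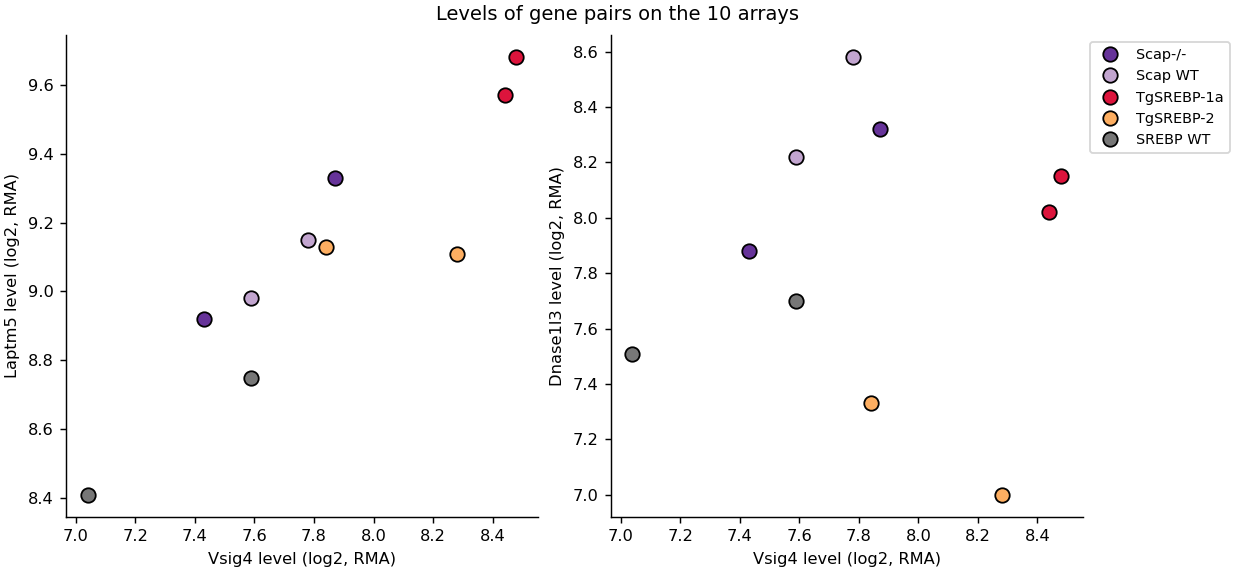
Levels of gene pairs on the 10 arrays (log2, RMA), Laptm5 against Vsig4 on the left and Dnase1l3 against Vsig4 on the right; each point is 1 array, coloured by group. The Vsig4 and Laptm5 levels ran together (Pearson correlation 0.91, 10 arrays of 5 pools), while Dnase1l3 was lowest in TgSREBP-2, where Vsig4 was 7.84 and 8.28 (correlation 0.05).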

How the data were processed

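The authors summarised the arrays with RMA, per the submitters' processing notes (version not given in the sources used here). The deposited levels, which run between 2.17 and 13.34, were taken to be log2. The series' design text names Microarray Suite 5.0. No further normalisation was applied. After 66 control probe sets were left out, 11868 were tested. The platform annotation names 1 gene for 7717, several for 150 and none for 4001, and 7677 identifiers matched RefSeq. The brightest probe set stands for a gene with several.

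A single limma 3.58.1 fit (R 4.3.3) held all 10 arrays, with 5 residual and 6.26 prior degrees of freedom, two-sided, with Benjamini-Hochberg adjustment over all probe sets in each comparison. A call needed an adjusted p under 0.05 and a 1.5-fold difference, because duplicates share a pool. The number of arrays limits the precision. The genes and marker lists were chosen with earlier results of these data known. Genes named were the 4 genes, called members of the lists, the 6 brightest macrophage and endothelial markers, and the 3 genes closest in pattern to each of the 4, clone and predicted names left out. Other list genes were named after their values were seen.

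Alternatives were quantile normalisation, median centring, brighter or plain _at probe sets, a variance trend, no or a 2-fold floor, arrays of 1 study, a replicate block, averaging a gene's probe sets, and leaving out each array.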

Additional observations from a re-analysis of the deposited data

Results flagged for a closer look

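For Dnase1l3, both TgSREBP-1a arrays lay above SREBP WT and both TgSREBP-2 arrays below it, and the direct difference of 0.92 between these 2 pools, each hybridised 2 times, was called. The gene was chosen with these values known, so this is a description, and the call was lost at a 2-fold floor and without any 1 of the 6 arrays of the SREBP study. The acinar markers Cpa1 (-5.18), Gp2 (-2.56) and Cuzd1 (-1.78) also differed between TgSREBP-1a and TgSREBP-2 by a call in the direct comparison, in the direction opposite to Dnase1l3. Whether the acinar transcripts bear on the Dnase1l3 value was not tested.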

How the results depend on the processing

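No measured macrophage or endothelial marker other than the 4 genes was called in any comparison under the alternatives listed in the processing summary. These included the mean over probe sets of a gene and each left-out array. The markers were not counted under the crossed block. Of 260 alternative values for the 5 probe sets, 240 moved by less than 1 SD, as limma estimated it for the probe set, and 20 by more. No called difference changed sign. Many of the 240 could not move. The replicate block, and leaving out an array of neither compared group, leave a difference of group means as it was. All 20 larger moves came from leaving out an array of a compared group. The count of called probe sets in Scap-/- against Scap WT was 10, and it was 4 with plain _at probe sets or with arrays of the same study. In TgSREBP-1a against SREBP WT it was 123, against 67 with plain _at probe sets and 59 with a 2-fold floor. In TgSREBP-2 against SREBP WT it was 14, against 4 with plain _at probe sets, and in TgSREBP-1a against TgSREBP-2 it was 61, against 36 and 31. Leaving out each array in turn gave 3 to 11 calls for Scap-/-, 40 to 134 for TgSREBP-1a, 7 to 17 for TgSREBP-2 and 23 to 65 between the transgenics. The lowest counts came without Scap WT replicate 1, without TgSREBP-1a replicate 1 (40 and 23) and without TgSREBP-2 replicate 1. Counts also fell by over 1.5 times without Scap-/- replicate 1 or Scap WT replicate 2 (6 each), TgSREBP-1a replicate 2 (57, and 35 between the transgenics), SREBP WT replicate 2 (63, and 9 for TgSREBP-2) and TgSREBP-2 replicates 1 or 2 (30 and 38 between the transgenics). A lone array was assumed to vary like the other groups. The cause of these shifts was not tested. Some of these settings held fewer probe sets or arrays.

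With the replicate number as a block the counts were 19, 186, 37 and 96, and Vsig4 gained a call in TgSREBP-2 (0.74, SE 0.13). Deviations of equally numbered arrays correlated at 0.204 to 0.332 in 7 of 10 pairs of groups and at -0.175 to -0.114 in the other 3, all with TgSREBP-2. No label ties the numbers to a shared day or batch and not every pair was above 0.1, so the numbers were not taken to pair the arrays. With the numbers of TgSREBP-2 crossed, an alternative chosen after seeing the data, TgSREBP-1a against TgSREBP-2 gave 78 calls. Dnase1l3 lost its call at the 2-fold floor. Signal over background is not known, which limits Mmrn2.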

Other observations

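Colec11, a collectin and one of the 4 measured stellate cell markers, had 7.61 and 7.41 in TgSREBP-1a and 7.04 and 6.67 in TgSREBP-2, against 6.56 and 5.70 in SREBP WT. The differences from SREBP WT were 1.38 (SE 0.31, limma adjusted p = 0.0722) and 0.73 (SE 0.31, adjusted p = 0.783), neither called, and Colec11 was named after its values were seen. In the Scap study it had 7.08 and 6.49 in Scap-/- and 7.09 and 6.19 in Scap WT, which overlapped.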
